A study of Mus musculus with 24 samples.

Results

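Transcripts of 10 genes that protect cells from oxidants and heavy metals were followed across mouse cartilage explants held at 3 hydrostatic pressures. The genes were taken by symbol from the matrix of raw gene counts: Hmox1, Nqo1, Gclc, Gclm, Txnrd1, Srxn1, Sod2, Sod3, Mt1 and Mt2, which makes 10 of the 52178 genes listed there. Each of the 10 was among the 21283 genes with enough counts to be tested.

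The explants were hip caps, the cartilage that covers the femoral head, taken from male mice of the C57/BL6J strain (C57/BL6 in the labels) at 4 weeks of age, and whole metatarsals of embryonic day 15 mice of that strain. Explants were cultured for 24 h, held for 1 h without added pressure (control) or at 5 MPa or 50 MPa, and cultured for another 24 h before RNA was taken. Each of the 6 groups had 4 libraries of ribosome-depleted total RNA, a hip cap library holding both caps of 1 mouse and a metatarsal library holding 6 pooled metatarsals of embryos whose sex was not known. All mice were wild type, carrying no transgene or deleted allele, and since the media also differed between the hip caps and the metatarsals, tissue, age, sex and medium cannot be told apart in any comparison of the tissues.

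The transcription factor NRF2, encoded by Nfe2l2, is held at low levels by KEAP1 until oxidants or electrophiles modify KEAP1, and then binds antioxidant response elements in the promoters of its target genes. Hmox1, Nqo1, Gclc, Gclm, Txnrd1 and Srxn1 are standard targets, which degrade haem, reduce quinones, make glutathione and keep thioredoxin and peroxiredoxin in reduced form. Superoxide dismutases convert superoxide to hydrogen peroxide, SOD2 in mitochondria and SOD3 in the extracellular matrix, where cartilage is a known site of expression, while the metallothioneins MT1 and MT2 are small cysteine-rich proteins that bind zinc, copper and cadmium and are switched on by the metal sensor MTF1 and by glucocorticoids.

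The libraries held 4185557 to 25104484 counts. RNA integrity values were below the ideal minimum in all samples by the paper's account, which reads them as some partial degradation. The part of RNA quality in the levels and comparisons below was not tested. Control hip cap library 4 and 50 MPa hip cap library 2 stood apart and were left out by the study. They were left out here too, so that 22 libraries were tested, with 3 control and 3 50 MPa hip cap libraries. Cartilage markers (8 genes, among them Col2a1 and Acan) were detected in every library and summed to 21984 to 74426 CPM (counts over the TMM-scaled library total) in the hip caps used and to 1795 to 4750 CPM in the metatarsals, which also carried skeletal muscle markers at 413 to 2413 CPM against 7.61 to 40.6 CPM in the hip caps. In such bulk samples, fewer cells of a type and less RNA per cell cannot be told apart. Sequencing run and strand type were unevenly spread. By the run read from a heat map in the paper, the control and 50 MPa hip caps used came from 1 run and the 5 MPa hip caps from the other. That reading does not give the numbers of libraries that the paper states for its sequencing kits, so the run of some libraries is uncertain. The 50 MPa hip caps had only unstranded libraries. Run and strand type entered the fit as terms, and in the comparisons of pressure in hip caps these terms rest on a few libraries. By the design, the fold change at 50 MPa weighs control hip cap library 3 at −0.76 and control libraries 1 and 2 at −0.12 each. Weights here and below are those of unweighted least squares on the same terms. In the edgeR fit they also vary with the counts of each gene. The comparison of tissues at 5 MPa was the cleanest, because all 8 of its libraries came from 1 run, were stranded and were weighed equally at 0.25. Where nothing states that samples came from separate cultures, p-values measure only the spread between these samples.

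Mt1 and Mt2 are neighbours on chromosome 8, and the start of each carries cores of the metal response element, the sequence bound by MTF1. RefSeq promoter windows of GRCm38.p6 (250 bases before to 50 after the start) matched 7 of the 10 genes, and none was listed for Hmox1, Gclc or Sod3. The windows of Mt2 (chr8:94172368-94172667, plus strand) and Mt1 (chr8:94178839-94179138, plus strand) start 6471 bases apart. They are shown because these genes had the widest pressure differences of the 10 in the hip caps. The 280 bases up to +30 from the start are chr8:94172368-94172647 and chr8:94178839-94179118, with metal cores (TGCACNC or TGCGCNC, either strand) in capitals.
Mt2: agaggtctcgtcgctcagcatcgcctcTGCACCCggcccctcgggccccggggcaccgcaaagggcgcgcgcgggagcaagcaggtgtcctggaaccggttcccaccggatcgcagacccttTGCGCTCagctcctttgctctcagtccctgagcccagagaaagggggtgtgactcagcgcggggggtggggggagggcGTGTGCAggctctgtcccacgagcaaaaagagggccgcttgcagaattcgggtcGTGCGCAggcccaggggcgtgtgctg
Mt1: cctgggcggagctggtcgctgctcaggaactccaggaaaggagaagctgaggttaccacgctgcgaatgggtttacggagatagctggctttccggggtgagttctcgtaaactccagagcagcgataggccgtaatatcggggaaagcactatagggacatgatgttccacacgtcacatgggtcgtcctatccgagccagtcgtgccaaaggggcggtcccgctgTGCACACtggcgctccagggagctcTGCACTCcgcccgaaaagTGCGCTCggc
The Mt2 window held 4 metal cores, at −223 to −217, −128 to −122, −50 to −44 and +5 to +11 from the start, and the Mt1 window held 3, at −23 to −17, +3 to +9 and +21 to +27. Of 32851 windows of the same length, 25.7% held at least 1 core of either kind (12.6% TGCACNC and 15.4% TGCGCNC) and 1.97% held at least 3.

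The core of the antioxidant response element, TGACNNNGC on either strand, was in windows of 4 of the 7 genes, and 12.4% of all windows held it. Txnrd1 had several windows and so more chances of a match, which makes these shares of genes and of windows unlike measures. The stretches around the cores are shown because they group the genes by the element that NRF2 binds. Each has 29 bases, with the core in capitals, and runs 5′ to 3′ on the strand that carries the core.
Srxn1 (chr2:152105542-152105570, minus strand): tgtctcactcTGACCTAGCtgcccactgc
Gclm (chr3:122245413-122245441, minus strand): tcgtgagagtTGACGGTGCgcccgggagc
Mt2 (chr8:94172529-94172557, plus strand): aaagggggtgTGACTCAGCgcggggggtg
Txnrd1 (chr10:82859104-82859132, minus strand): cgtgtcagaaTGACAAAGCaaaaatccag
Counted from the start of the gene, the cores lie at +29 to +37 in Srxn1, −134 to −126 in Gclm, −79 to −71 in Mt2 and −92 to −84 in 1 of the windows of Txnrd1. The Gclm core overlaps a metal core at −138 to −132, and Gclm had further metal cores at −72 to −66 and +28 to +34 and Srxn1 1 at −19 to −13. The windows of Nqo1 and Sod2 held neither letter pattern. A match describes the letters only.

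To see which of the 10 genes were abundant, levels were divided by transcript length (CPM per kb). How the partial degradation of the RNA acted on short against long transcripts was not tested. In control hip caps the highest means were those of Hmox1 at 46.9 CPM per kb, Mt1 at 41.6, Gclm at 37.0 and Mt2 at 35.2, and Gclc was lowest at 5.79. The libraries of these leading genes overlapped (Hmox1 35.5 to 62.0, Mt1 28.6 to 51.3 CPM per kb), so their order was not settled. In metatarsal controls the metallothioneins led, Mt1 at 97.5 and Mt2 at 85.9 CPM per kb, ahead of Hmox1 at 36.8, and Sod3 was lowest at 0.578. In hip caps after 5 MPa Mt1 (196) and Mt2 (176) stood above Hmox1 (78.3 CPM per kb), and after 50 MPa Mt2 (199.8) and Mt1 (139.9) did so as well (Hmox1 92.4), although the 3 libraries at 50 MPa were so unequal that neighbours in this order did not differ beyond their spread.

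**Figure D1:**
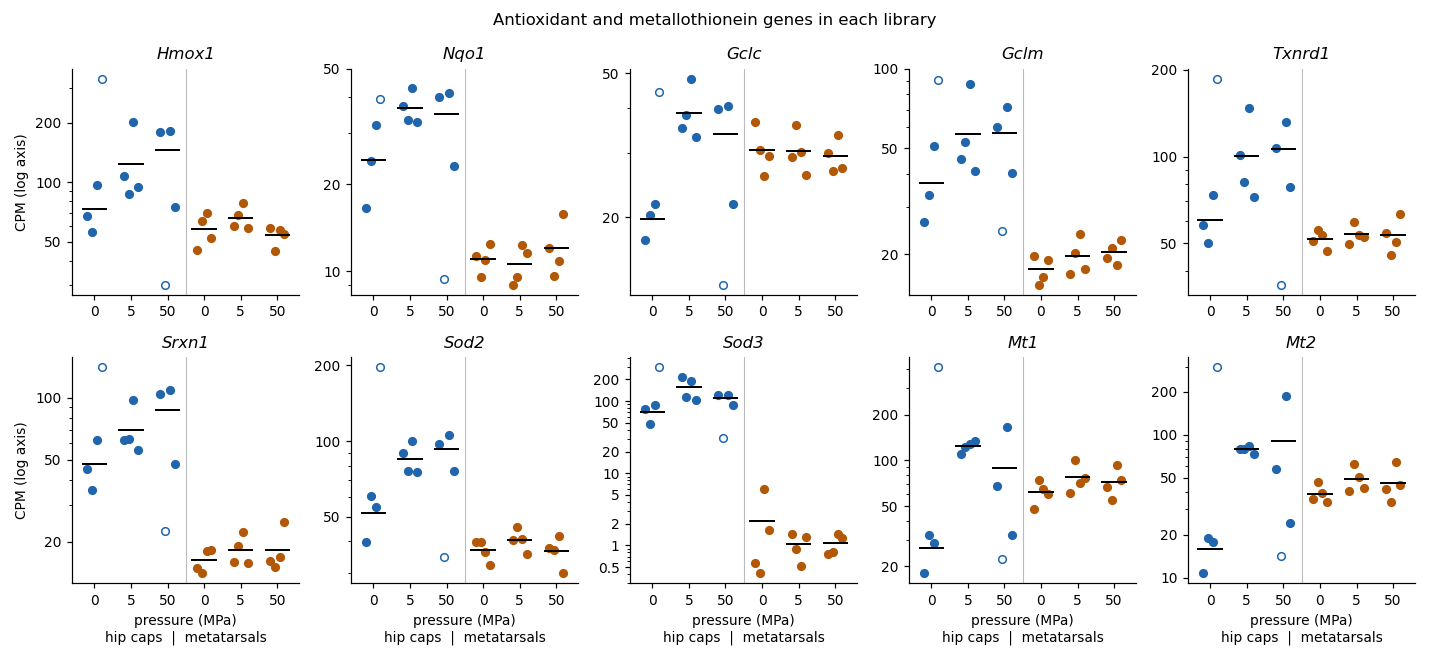
Levels of the 10 genes in each of the 24 libraries, in CPM on a log axis, by group, with bars at the group means of the libraries used and open symbols for the 2 libraries left out. Sod3 separates the tissues without overlap, between 48.4 and 217 CPM in the hip caps used and at most 6.02 CPM in metatarsals.

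The first comparison asked how the protective genes differ between cartilage of the postnatal hip and the embryonic metatarsal. At 5 MPa, where run and library type were the same in both tissues, 7 of the 10 genes were higher in hip caps (Hmox1, Nqo1, Gclm, Txnrd1, Srxn1, Sod2 and Sod3), 0 were lower, and log2 fold changes of all 10 were positive. Of all genes tested there, 37.9% were called in either direction. The median of all genes was −0.08. Levels of 9 of the 10 did not overlap between the tissues, against 40.4% of all genes. Without pressure 5 genes were higher in hip caps and 1, Gclc, was lower, with 29.9% of all genes called. After 50 MPa the 7 genes called at 5 MPa were again higher, with 19.7% of all genes called. The calls in controls and after 50 MPa rest on single libraries that carry the run and library type terms: without metatarsal control library 1, 1 of the 10 was called in controls, and without 50 MPa metatarsal library 4, 1 was called after 50 MPa.

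Sod3 had the widest difference. This extracellular superoxide dismutase was at 217, 114, 188 and 104 CPM in hip caps after 5 MPa and at 1.43, 0.881, 0.513 and 1.32 CPM in metatarsals after 5 MPa. The means were 156 ± 55.5 and 1.03 ± 0.420 CPM (SD, n = 4 each), and no hip cap library came near a metatarsal one. The log2 fold change was 7.12 ± 0.62 (SE, 95% interval 5.81 to 8.43, adjusted p = 1.78e-07), a 139-fold difference. It was 5.52 ± 0.96 in controls (adjusted p = 0.000462) and 6.92 ± 0.98 after 50 MPa (adjusted p = 9.93e-05). The metatarsal levels rest on 3 to 109 counts a library, and the control value depends on metatarsal control library 3, which had 6.02 CPM against 0.415 to 1.64 CPM in the other 3; without it the log2 fold change in controls was 6.40. Leaving out other single libraries moved that value as well, to 4.68 without metatarsal control library 1, 6.77 without control hip cap library 3 and 6.76 without 50 MPa metatarsal library 4, and without the last of these the value after 50 MPa was 8.53. Sod3 was called in each of these fits.

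Sod2, the mitochondrial superoxide dismutase, was also higher in hip caps at each pressure, with log2 fold changes of 0.58 ± 0.20 in controls (adjusted p = 0.0339), 0.99 ± 0.14 after 5 MPa (adjusted p = 9.16e-06) and 1.51 ± 0.23 after 50 MPa (adjusted p = 5.00e-05), although the control value was −0.35 when libraries were scaled by their sizes alone. After 5 MPa it was at 89.4, 76.3, 99.9 and 75.2 CPM in hip caps and at 40.4, 45.7, 41.0 and 35.7 CPM in metatarsals. Every hip cap library lay above every metatarsal library. Among the other superoxide and peroxide genes listed (4 genes), only the cytosolic superoxide dismutase Sod1 was called in any of these 3 comparisons, at a log2 fold change of 0.50 after 5 MPa.

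Of the NRF2 targets, Srxn1 and Nqo1 had the widest tissue differences after 5 MPa. Srxn1, which restores oxidised peroxiredoxins, was at 62.5, 62.9, 97.3 and 55.7 CPM in hip caps after 5 MPa and at 16.0, 19.1, 22.2 and 15.8 CPM in metatarsals, a log2 fold change of 1.86 ± 0.21 (1.42 to 2.30, adjusted p = 4.74e-07). Nqo1, a quinone reductase, was at 37.2, 33.3, 42.8 and 32.7 CPM against 8.99, 9.59, 12.4 and 11.6 CPM, a log2 fold change of 1.71 ± 0.16 (1.36 to 2.05, adjusted p = 4.43e-08). Neither gene overlapped between the tissues at any pressure. In controls the log2 fold changes were 1.36 ± 0.31 for Srxn1 (adjusted p = 0.00222) and 0.92 ± 0.24 for Nqo1 (adjusted p = 0.00698), and after 50 MPa they were 1.87 ± 0.33 (adjusted p = 0.000256) and 1.16 ± 0.25 (adjusted p = 0.0022).

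The 2 subunits of glutamate-cysteine ligase, the enzyme that makes the first step to glutathione, went separate ways. Gclm, the modifier subunit, was higher in hip caps at each pressure, with log2 fold changes of 0.92 ± 0.30 in controls (adjusted p = 0.0251), 1.46 ± 0.21 after 5 MPa (adjusted p = 9.31e-06) and 1.20 ± 0.33 after 50 MPa (adjusted p = 0.0123), the control value turning to −0.013 with library sizes alone. Gclc, the catalytic subunit, was lower in control hip caps, at 17.3, 20.3 and 21.8 CPM against 36.7, 30.6, 26.1 and 29.6 CPM, a log2 fold change of −0.69 ± 0.24 (−1.18 to −0.20, adjusted p = 0.0317). The control groups did not overlap. Under pressure the tissues were not told apart for Gclc, with values of 0.28 ± 0.17 after 5 MPa (adjusted p = 0.197) and 0.20 after 50 MPa (adjusted p = 0.665). A share of 6.82% of the 31-base words of Gclm is also in other genes, mainly Gm17494, which had 13 to 411 counts where Gclm had 101 to 1681.

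Hmox1, haem oxygenase 1, and Txnrd1, the cytosolic thioredoxin reductase, were called different between tissues under both pressures and not in controls. The log2 fold change of Hmox1 was 0.51 ± 0.36 in controls (adjusted p = 0.311), 0.82 ± 0.26 after 5 MPa (adjusted p = 0.0156) and 1.40 ± 0.40 after 50 MPa (adjusted p = 0.0174). That of Txnrd1 was 0.12 ± 0.25 (adjusted p = 0.765), 0.83 ± 0.17 (adjusted p = 0.000697) and 0.76 ± 0.27 (adjusted p = 0.0480). The call of Hmox1 after 5 MPa rests on 5 MPa hip cap library 3, the highest at 202 CPM against 87.6 to 108 CPM in the other 3, and that of Txnrd1 after 50 MPa was kept in only 5 of 22 fits that each left out 1 library. Scaled by library sizes alone, Txnrd1 after 50 MPa turned to −0.088.

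**Figure D2:**
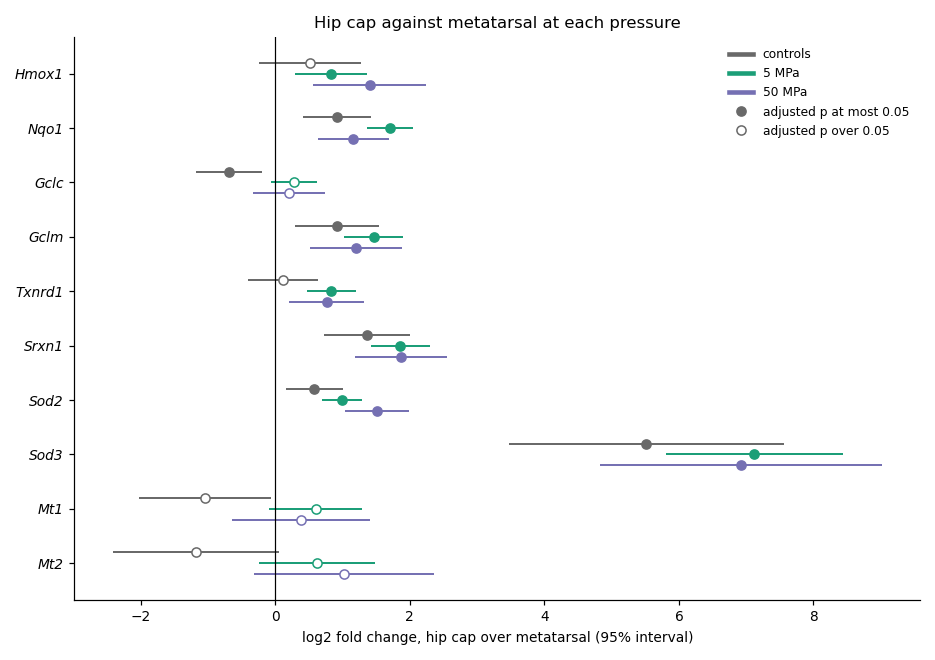
Log2 fold change of hip cap over metatarsal for the 10 genes at each pressure, with 95% intervals, filled where the adjusted p was at most 0.05. Sod3 is the farthest to the right at 5.52, 7.12 and 6.92, and the metallothioneins lie left of 0 in controls and right of 0 under both pressures without being called.

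Metallothionein levels were not called different between tissues at any pressure, though the groups did not overlap in controls or after 5 MPa. In controls Mt1 was at 18.1, 32.5 and 28.3 CPM in hip caps and at 47.6, 74.4, 64.7 and 60.1 CPM in metatarsals, a log2 fold change of −1.04 ± 0.46 (−2.02 to −0.06, adjusted p = 0.103), and Mt2 had −1.18 ± 0.58 (adjusted p = 0.144). With the 2 left-out libraries put back the control values turned to 0.86 for Mt1 and 0.95 for Mt2 (not called), and the call of Gclc in controls was lost at −0.11 (adjusted p = 0.811). After 5 MPa the hip caps lay above instead, with 110, 123, 129 and 134 CPM of Mt1 against 61.4, 101, 71.4 and 76.7 CPM, a log2 fold change of 0.60 ± 0.33 (adjusted p = 0.162), and Mt2 had 0.62 ± 0.40 (adjusted p = 0.247). Fitted on only the 5 MPa libraries of the tissues, without the other groups, both were called higher in hip caps, Mt1 at 0.65 (adjusted p = 0.00571) and Mt2 at 0.66 (adjusted p = 0.00289). Over all members, non-overlapping levels were found for 7 in controls (Nqo1, Gclm, Srxn1 and Sod3 higher in hip caps, Gclc, Mt1 and Mt2 lower), against 42.3% of all genes, and for 7 after 50 MPa, all higher in hip caps, against 39.9%.

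Cell type markers moved with the tissue difference as well. After 5 MPa summed osteoclast markers (7 of 8 tested) were at 555 to 1724 CPM in hip caps, and they were at 37.1 to 77.2 CPM in all metatarsal libraries, where Calcr was at 0 in all 12. Neutrophil markers (6 of 8 tested) were at 4.57 to 186 CPM in the hip caps used and at 0.445 to 3.86 CPM in metatarsals, with Ly6g at 0 in 10 libraries of each tissue. Macrophage markers (7 of 8 tested) spanned 102 to 690 CPM in the hip caps used and 56.7 to 115 CPM in metatarsals. Library 3 of the 5 MPa hip caps was the highest of its group for 8 of the 10 genes (all but Sod3 and Mt1). Of the hip caps used it had the highest macrophage (690 CPM), neutrophil (186), osteoclast (1724), endothelial (289), osteoblast (10464) and erythroid (22.6) sums. Its cartilage marker sum, 21984 CPM, was the lowest of the hip caps used. Endothelial markers were at 57.0 to 289 CPM in hip caps and 83.9 to 131 CPM in metatarsals, osteoblast markers at 3843 to 10464 and 2295 to 4429 CPM, and erythroid markers (3 of 8 tested) at 1.79 to 22.6 and 0.815 to 9.28 CPM. The part of these cell types in the differences of the 10 genes was not tested.

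The second comparison asked whether pressure changed the genes in hip caps. After 5 MPa none of the 10 was called, with a smallest adjusted p of 0.141, although 7 of the 10 had an unadjusted p under 0.05 by edgeR and DESeq2 called 3 (Gclc, Mt1 and Mt2) among 577 genes of the whole table. By edgeR 0.0188% of all genes (4 genes) were called there and 3145 had an unadjusted p under 0.05. All 10 log2 fold changes were positive, as were 50.9% of those of all genes, and 6 genes (Nqo1, Gclc, Sod2, Sod3, Mt1 and Mt2) did not overlap with controls, against 16.4% of all genes. After 50 MPa Sod2 and Mt2 rose (2 of 10, with 5.18% of all genes called), all 10 log2 fold changes were positive against 51% of all genes, and 4 genes (Txnrd1, Sod2, Sod3 and Mt2) did not overlap with controls, against 16.1%.

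Mt1 and Mt2 had the widest fold changes of the 10. After 5 MPa Mt2 was at 79.4, 80.1, 83.1 and 73.3 CPM, against 10.8, 19.1 and 17.6 CPM in controls. The 4 pressed libraries were close together and all were above the highest control. Mean Mt2 was 79.0 ± 4.12 CPM (SD, n = 4) against 15.8 ± 4.44 CPM (n = 3), a ratio of 4.99, and mean Mt1 124 ± 10.4 against 26.3 ± 7.38 CPM, a ratio of 4.71. With run and library type in the fit the log2 fold changes were 2.09 ± 0.66 for Mt2 (0.68 to 3.50, adjusted p = 0.185) and 1.90 ± 0.53 for Mt1 (0.78 to 3.02, adjusted p = 0.153). Since all 5 MPa hip caps came from the other run than the controls used, these values depend on how the run is estimated. No hip cap group, as used, held both runs, so that estimate came from the metatarsals. In the 5 MPa fold change of hip caps, metatarsal control library 1 weighed 0.56 and 50 MPa metatarsal library 4 weighed 0.44. Control hip cap library 3 weighed −0.44, control hip cap libraries 1 and 2 −0.28 each, and each 5 MPa hip cap library 0.25.

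After 50 MPa Mt2 was at 57.9, 188 and 24.0 CPM and Mt1 at 67.8, 166 and 32.2 CPM in the libraries used. Library 3 was the highest and library 4 the lowest for both genes, and the lowest Mt1 value lay below the highest control. The coefficient of variation was 96.1% for Mt2 and 78.0% for Mt1, against 5.21% and 8.43% after 5 MPa. The log2 fold change of Mt2 was 2.43 ± 0.66 (1.01 to 3.84, adjusted p = 0.0466), a 5.38-fold change, and that of Mt1 was 1.59 ± 0.53 (0.48 to 2.71, adjusted p = 0.0835). The call of Mt2 was kept in only 3 of 22 fits that each left out 1 library, and it was lost in the fits of hip caps alone. Without 50 MPa hip cap library 3 the log2 fold changes were 1.28 for Mt2 and 0.75 for Mt1, and without library 4 they were 2.85 and 1.97. Mt2 shares 58.1% of its 31-base words with other genes, mainly Gm45774, but that gene had 0 to 32 counts a library where Mt2 had 41 to 2792.

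**Figure D3:**
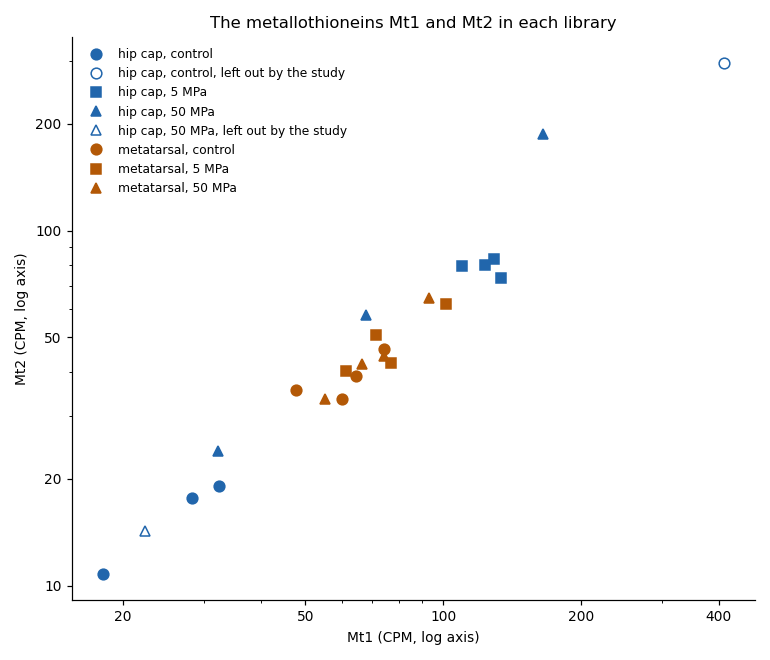
Mt1 against Mt2 in each library, in CPM on log axes, with colours for the tissues, shapes for the pressures and open symbols for the 2 libraries left out. The points follow 1 line in both tissues, with Pearson's r of 0.98 over 10 hip cap libraries and 0.91 over 12 metatarsal libraries.

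Both metallothioneins varied together from library to library. Over the 10 hip cap libraries used, log2 CPM of Mt1 and Mt2 had Pearson's r = 0.98 (permutation p = 1e-05, the smallest that the resamples can give, 6.0e-05 after Benjamini-Hochberg adjustment over 6 relations) and Spearman's rho = 0.93 (permutation p = 0.00031, adjusted 0.00093). Without the 2 libraries farthest from the median r was 0.95, and within the run that held 6 of them it was 0.997. In the 12 metatarsal libraries r was 0.91 (permutation p = 6.0e-05, adjusted 0.00018) and rho 0.90, with r = 0.91 without the 2 farthest libraries and 0.94 within the run of 10 libraries. The libraries of 1 tissue span 3 pressures, so these relations hold pressure and library differences together. The count of Mt1 over that of Mt2 had a median of 1.59 and ranged from 0.883 in 50 MPa hip cap library 3 to 1.83.

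In the libraries used Sod2 was higher after 50 MPa, at 97.3, 106 and 76.2 CPM against 39.9, 60.5 and 55.0 CPM in controls. The left-out libraries lay the other way, the control at 196 CPM and the 50 MPa library at 34.7 CPM. The means were 93.1 ± 15.2 and 51.8 ± 10.7 CPM (SD, n = 3 each), and each of the 3 pressed libraries was above each control. The log2 fold change was 0.95 ± 0.21 (0.50 to 1.39, adjusted p = 0.0203), a 1.93-fold change, and was called in 18 of 22 fits that each left out 1 library. The 5 MPa libraries of both tissues have a weight of 0 in this fold change, so the fits without them test it little. The call was lost without control hip cap library 3, 50 MPa hip cap library 3, metatarsal control library 1 or 50 MPa metatarsal library 4. It was also lost in the fits of hip caps alone. After 5 MPa Sod2 was at 89.4, 76.3, 99.9 and 75.2 CPM, again above every control used, with a log2 fold change of 0.53 that was not called. Sod2 shares 26.7% of its 31-base words with other genes, mainly AC166110.4, which had 0 to 2 counts a library where Sod2 had 152 to 1920.

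Sod3 levels lay above the controls after both pressures, at 217, 114, 188 and 104 CPM after 5 MPa and 123, 122 and 88.7 CPM after 50 MPa against 76.7, 48.4 and 87.7 CPM. The ratio of means was 2.20 after 5 MPa, but with run and library type in the fit the log2 fold change was 0.34 ± 1.09 (−1.98 to 2.67, adjusted p = 0.922). The interval takes in both a marked fall and a marked gain, so the design could not place Sod3 under pressure, and leaving out control hip cap library 3 turned the sign at both pressures (−1.0 and −1.71).

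Among the NRF2 targets Gclc was nearest to a call. It was at 35.3, 38.4, 48.2 and 33.3 CPM after 5 MPa and at 39.8, 40.6 and 21.7 CPM after 50 MPa, against 17.3, 20.3 and 21.8 CPM in controls. Only the lowest 50 MPa library reached into the range of the controls. Log2 fold changes were 1.00 ± 0.27 after 5 MPa (0.44 to 1.56, adjusted p = 0.141) and 0.86 ± 0.25 after 50 MPa (0.34 to 1.39, adjusted p = 0.0508). The other 5 targets were not called either: after 5 MPa their log2 fold changes were 0.40 for Hmox1, 0.73 for Nqo1, 0.70 for Gclm, 0.76 for Txnrd1 and 0.64 for Srxn1, and after 50 MPa 0.66, 0.21, 0.38, 0.59 and 0.48. Hmox1 was at 55.8 to 97.3 CPM in controls, 87.6 to 202 CPM after 5 MPa and 74.5 to 182 CPM after 50 MPa, so that its groups overlapped. Nqo1 was at 16.5 to 32.1, 32.7 to 42.8 and 23.1 to 41.2 CPM, apart from controls after 5 MPa by a narrow gap and not after 50 MPa. Txnrd1 showed the opposite order, with 50.1 to 73.3, 72.3 to 147 and 78.5 to 132 CPM, apart from controls after 50 MPa and not after 5 MPa. The groups overlapped for Gclm (26.5 to 51.2, 41.0 to 87.5 and 40.5 to 71.4 CPM) and Srxn1 (35.6 to 62.6, 55.7 to 97.3 and 47.7 to 109 CPM). In the 50 MPa group library 4 was the lowest of the 3 used for each of the 10 genes.

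All of these hip cap values depend on the libraries left out, which were put back only together, so their parts cannot be told apart. Control hip cap library 4 was at 411 CPM for Mt1, 297 CPM for Mt2, 333 CPM for Hmox1 and 196 CPM for Sod2, above every other hip cap library for each of these. The left-out 50 MPa library was at 30.3 CPM for Hmox1 and 34.7 CPM for Sod2, below every control used. Its Mt1 (22.3 CPM) and Mt2 (14.3 CPM) lay within the range of the controls used. In control hip cap library 4 summed cartilage markers were at 8859 CPM, osteoclast markers at 4535 CPM and macrophage markers at 739 CPM, against 47947 to 74426, 318 to 526 and 102 to 312 CPM in the other 3 controls. With both left-out libraries put back, 2 of 10 log2 fold changes were positive after 5 MPa and 3 after 50 MPa, and no gene was called or had non-overlapping levels with 4 libraries a group. Among the libraries used, osteoclast markers also lay above the controls under pressure, at 555 to 1724 CPM after 5 MPa and 535 to 1591 CPM after 50 MPa, while cartilage markers were at 21984 to 53220 and 31053 to 35888 CPM. Skeletal muscle markers, though low, lay above the controls too, at 7.61 to 11.6 CPM in controls, 15.1 to 28.3 CPM after 5 MPa and 25.5 to 40.6 CPM after 50 MPa. After 50 MPa 1 of 8 muscle markers and 0 of 7 osteoclast markers were called higher. Called lower were 2 of 8 cartilage markers and 1 of 7 osteoblast markers, with 5.18% of all genes called in either direction. All 8 cartilage markers had negative log2 fold changes there, with a median of −1.24. The part of these cell types in the differences was not tested.

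**Figure D4:**
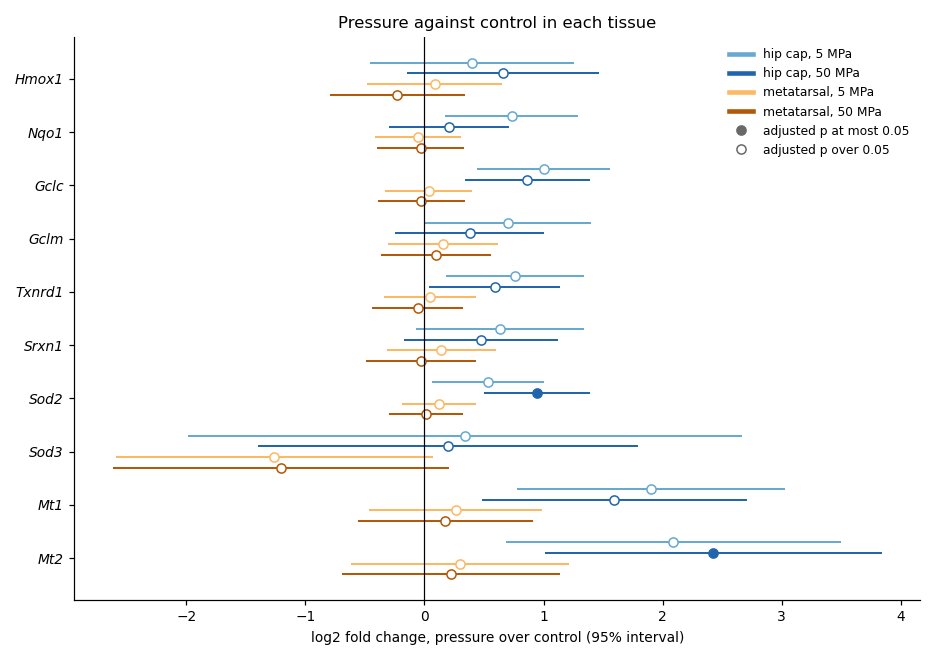
Log2 fold change of 5 and 50 MPa over control for the 10 genes in hip caps and metatarsals, with 95% intervals, filled where the adjusted p was at most 0.05. Hip cap values all lie right of 0 with wide intervals, and Sod2 (0.95) and Mt2 (2.43) at 50 MPa are the only filled points.

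The same question was put to the metatarsals, where none of the 10 genes was called at either pressure and none had an unadjusted p under 0.05. By edgeR 0% of all genes were called at 5 MPa (689 at an unadjusted p under 0.05) and 0% at 50 MPa (828), and DESeq2 called none of the 10. None of the 10 had levels apart from the controls at either pressure, against 2.77% of all genes at 5 MPa and 4.42% at 50 MPa. Mt1 was at 61.4, 101, 71.4 and 76.7 CPM after 5 MPa and at 66.5, 55.1, 93.1 and 74.2 CPM after 50 MPa, against 47.6, 74.4, 64.7 and 60.1 CPM in controls, with much overlap. The NRF2 targets kept to narrow ranges over all 12 metatarsal libraries, Hmox1 at 44.9 to 78.0 CPM, Nqo1 at 8.99 to 15.7, Gclc at 26.1 to 36.7, Gclm at 15.3 to 23.9, Txnrd1 at 45.6 to 63.2 and Srxn1 at 14.1 to 25 CPM. The intervals were narrower than in hip caps: the log2 fold change of Mt1 after 5 MPa was 0.26 (−0.46 to 0.99), that of Mt2 was 0.30 (−0.61 to 1.21) after 5 MPa and 0.23 (−0.69 to 1.14) after 50 MPa, and that of Sod2 was 0.12 (−0.19 to 0.44) and 0.01 (−0.30 to 0.33). Sod3 was at the low end, with −1.26 (−2.59 to 0.07) and −1.20 (−2.61 to 0.21), which rests on metatarsal control library 3: without it the values were 0.20 and 0.16.

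Whether hip caps and metatarsals responded differently was tested by the interaction of tissue and pressure. None of the 10 genes was called in it at 5 MPa, where 0.0188% of all genes were called, or at 50 MPa, where 0.132% were called. An unadjusted p under 0.05 was found for 5 of the 10 at 5 MPa, beside 2381 of the 21283 genes tested, and for 6 at 50 MPa, beside 3900. All 10 values were positive at both pressures, which means a larger log2 fold change in hip caps. That direction depends on the libraries left out: with all 24 libraries 3 of the 10 values were positive at 5 MPa and 5 at 50 MPa. Those nearest to a call were Sod2 at 50 MPa with 0.93 ± 0.23 (adjusted p = 0.0678), Gclc at 50 MPa with 0.89 (adjusted p = 0.105) and Mt2 at 50 MPa with 2.20 (adjusted p = 0.119). At 5 MPa Gclc had 0.97 (adjusted p = 0.304) and Mt1 1.64 (adjusted p = 0.335). DESeq2 called Gclc, Sod2 and Mt2 at 50 MPa, among 1349 genes of the whole table. The difference between tissues in their response was thus not shown by the edgeR test for any of the 10.

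Partners in 1 pathway were also set against each other across libraries. In the 10 hip cap libraries used, Gclc and Gclm, which form 1 enzyme, had r = 0.84 (permutation p = 0.00178, adjusted 0.00267) and rho = 0.92 (adjusted 0.00096), with r = 0.67 without the 2 farthest libraries and 0.90 within 1 run. In the 12 metatarsal libraries they had r = 0.08 (permutation p = 0.807) and rho = 0.17. Txnrd1 and Srxn1, both of the thioredoxin system, had r = 0.92 in hip caps (permutation p = 0.00028, adjusted 0.00056) and rho = 0.82 (adjusted 0.00894), with r = 0.87 without the 2 farthest and 0.95 within 1 run. In metatarsals r was 0.55 (permutation p = 0.0657, adjusted 0.0789) and rho 0.41, and r fell to 0.13 without 50 MPa libraries 2 and 4, so that this value rests on them. As for the metallothioneins, these relations hold pressure and library differences together. Pairs of unrelated genes were not examined, so the values do not show a tie particular to these partners. Whether the correlations differ between tissues was not tested.

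The wider NRF2 pathway was read from lists of other genes. Of 16 other NRF2 targets, 7 were higher in control hip caps than in control metatarsals, 15 after 5 MPa and 9 after 50 MPa, and 0 were lower. Their median log2 fold changes were 0.53, 1.07 and 0.93, beside −0.08, −0.08 and −0.01 over all genes, of which 29.9%, 37.9% and 19.7% were called in either direction. Among them Fth1, the ferritin heavy chain that stores iron, had log2 fold changes of 1.49, 2.50 and 2.24 in the 3 comparisons, and Me1, malic enzyme, which makes NADPH, had 1.96, 1.85 and 1.82. Of 9 genes that regulate NRF2 or share its partners, 3 were higher and 2 lower in controls, and 4 higher and 1 lower under each pressure, with medians of 0.44, 0.22 and 0.52. Mafk, a small MAF partner, had 1.47, 1.50 and 1.71, Sqstm1, whose product p62 sequesters KEAP1, had 1.31, 0.87 and 0.87, and Nfe2l2 itself was called only under pressure, at 0.56 after 5 MPa and 0.71 after 50 MPa. Bach1, a repressor at the same elements, was lower in hip caps at each pressure, by −0.91, −0.88 and −0.86.

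Of 17 glutathione genes outside the 10, 6 were higher and 3 lower in control hip caps, 12 higher and 1 lower after 5 MPa, and 9 higher and 0 lower after 50 MPa, with medians of 0.47, 0.85 and 0.68. Gsr and Slc7a11 of this list, and Txn1 and Prdx1 of the thioredoxin list, were already counted among the other NRF2 targets. Gpx3, the secreted glutathione peroxidase, stood out with log2 fold changes of 7.28, 7.98 and 7.51, while Gsta4 (−2.82) and Mgst1 (−2.55), glutathione transferases, were lower in control hip caps. Of 11 thioredoxin and peroxiredoxin genes 4 were higher in controls and 0 lower, 6 higher and 1 lower after 5 MPa, and 5 higher and 0 lower after 50 MPa, with medians of 0.50, 0.59 and 0.73 and Prdx6 at 0.83, 1.48 and 1.92. Of the 7 tested genes that make superoxide or peroxide, 1, 3 and 1 were higher and 0 lower, with medians of 0.20, 0.55 and 0.16. Of all genes 29.9%, 37.9% and 19.7% were called in these comparisons. The thioredoxin count in controls and that of the 7 genes after 5 MPa lay near these shares.

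Among 9 tested metal-handling genes 2 were higher and 2 lower in control hip caps, 5 higher and 3 lower after 5 MPa, and 3 higher and 2 lower after 50 MPa, with medians of −0.10, 0.44 and 0.33. The zinc importers Slc39a14 (2.28, 1.78 and 2.17) and Slc39a8 (1.85, 1.90 and 2.22) were higher in hip caps at each pressure, and the iron exporter Slc40a1 (ferroportin) was lower (−2.51, −1.94 and −2.10). Of 6 genes that glucocorticoids switch on, 4 were higher in hip caps in each comparison, with Zbtb16 at 4.01, 3.14 and 4.03, and 1 was lower in controls and after 5 MPa (medians 1.29, 1.63 and 1.89). Of 7 tested NF-κB targets 0, 4 and 2 were higher and 1, 0 and 0 lower (medians 0.48, 1.02 and 0.67). With 1 of 7 called in controls, these targets and the genes that make superoxide or peroxide lay below the 29.9% of all genes. That share was 37.9% after 5 MPa and 19.7% after 50 MPa. The media of the tissues differed, and their part in these levels cannot be told apart from that of the tissue.

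Under pressure genes of these lists were called only in hip caps after 50 MPa, where 5.18% of all genes were. The called were 2 of 9 metal-handling genes, 2 of 7 NF-κB targets, and 1 each of 9 regulators, 16 other targets, 17 glutathione and 11 thioredoxin genes. None was called among 4 other superoxide and peroxide genes, 7 that make these oxidants and 6 glucocorticoid genes. In hip caps after 50 MPa, Prdx6, a peroxiredoxin that also repairs oxidised lipids, rose by a log2 fold change of 1.11 (36.0 ± 4.55 CPM in controls and 77.1 ± 17.9 CPM at 50 MPa), Mgst1 by 2.90, the transferrin receptor Tfrc by 1.44 and the zinc importer Slc39a10 by 1.12. The chemokine genes Cxcl1 (2.38) and Ccl2 (2.54), which are NF-κB targets, and Cul3 (0.95), part of the ligase that degrades NRF2, rose as well, and the pentose phosphate enzyme Tkt fell (−0.73). None of these calls was kept in the fits of hip caps alone, where no gene of the whole table was called. Whether they held with other single libraries left out, or with the left-out libraries put back, was not followed. The median of the 16 other NRF2 targets was 0.49 after 5 MPa and 0.30 after 50 MPa in hip caps, beside 0.01 and 0.02 over all genes, and 0.06 and −0.0021 in metatarsals. No gene of these pathway lists was called after 5 MPa in hip caps, after either pressure in metatarsals, or in either interaction. In the same lists the widest uncalled values were that of Mgst1 for 5 MPa in hip caps (2.47) and those of Duox1 in metatarsals (−2.48 after 5 MPa and −3.41 after 50 MPa) and in the interactions (4.46 at 5 MPa and 3.49 at 50 MPa), the Duox1 values resting on group means under 1 CPM.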

How the data were processed

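RNA of 24 libraries was measured by sequencing. The authors trimmed reads with Trim Galore 0.6.5, quantified transcripts with kallisto and collapsed them to genes. The estimated counts, as deposited by the authors, carry no normalization, and GRCm39 is the build in their notes. These counts were rounded. Gene names, transcript lengths and shared 31-base words came from GENCODE release 21 for mouse (GRCm38), and RefSeq windows of GRCm38.p6 gave the promoters; no coordinate was carried between builds. The 10 genes and all lists were chosen with earlier results of these data known, so no list gives independent support.

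Genes were kept by filterByExpr over the 6 groups and tested with edgeR 4.0.16 (R 4.3.3, TMM scaling, robust quasi-likelihood fit, two-sided), with terms for group, sequencing run and library type, over 22 libraries. The run was read from the annotation of a heat map in the paper and the library type from the labels. The numbers of libraries per run read there do not match those the paper states for its high-output and mid-output kits. All statements about runs, and the run term, carry that uncertainty. Adjusted p-values (Benjamini-Hochberg, per comparison over all genes) of at most 0.05 were called, and log2 fold changes carry standard errors and 95% intervals. The 9 comparisons were tissue at each pressure, pressure within each tissue, and both interactions. Printed CPM are TMM-scaled over all 24 libraries, and log2 CPM used a prior count of 2. Depth set the precision, between 4185557 and 25104484 counts a library. Correlations used permutation tests with 100000 resamples. Markers of chondrocytes, osteoclasts, macrophages, neutrophils, erythroid, muscle, endothelial and osteoblast cells were summed. All 10 genes were named by the rule, further list genes where called or widest, and for Mt1, Hmox1, Sod2 and Sod3 the 3 genes nearest in pattern.

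Alternatives were DESeq2 1.42.0, RLE factors, library sizes alone, TMM factors made without mitochondrially encoded genes, no low-count filter, a minimum of 10 counts per gene and library, all 24 libraries, fits without 1 or both batch terms, each tissue alone, libraries of 1 run alone, a replicate block and leaving out each library. The fit was tested on simulated data. The table held 0 columns of other samples.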

Additional observations from a re-analysis of the deposited data

Results flagged for a closer look

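Control hip cap library 4, which the study left out, stood apart from the other 3 control hip caps for 7 of the 10 genes: the gap to the nearest control took up more of the range of the 4 libraries than Dixon's critical value for 4 samples allows. It had 333 CPM of Hmox1 (55.8 to 97.3 CPM in the others), 44.4 CPM of Gclc (17.3 to 21.8 CPM) and 186 CPM of Txnrd1 (50.1 to 73.3 CPM). It had 196 CPM of Sod2 (39.9 to 60.5 CPM) and 294 CPM of Sod3 (48.4 to 87.7 CPM). Mt1 was at 411 CPM (18.1 to 32.5 CPM) and Mt2 at 297 CPM (10.8 to 19.1 CPM). In the same library cartilage markers summed to 8859 CPM, osteoclast markers to 4535 CPM and macrophage markers to 739 CPM, and their part in these levels was not tested. Such gaps were looked for in 60 sets of 4 libraries (10 genes in 6 groups), and chance alone gives about 1 in 20 of them. No other library was singled out in this way.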

How the results depend on the processing

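Checks of the calls under other settings include many fits that left out a library with a weight of 0 in the comparison, which test a call little. Of the 22 calls of the 10 genes in the comparisons, 631 of 734 checks under other settings kept direction and call, 100 kept direction only and 3 changed sign. Those 3 came with library sizes alone, which moved the median of all genes to −0.97, −0.70 and −0.90 in the tissue comparisons and to 0.52 and 0.25 for 5 and 50 MPa in hip caps (712 genes higher and 8217 lower in controls, 1257 and 8889 after 5 MPa, 517 and 6328 after 50 MPa, against 2994 and 3378, 4003 and 4058, 2160 and 2038 with TMM): Gclm −0.013 and Sod2 −0.35 in controls and Txnrd1 −0.088 after 50 MPa. With that scaling 4 genes were called between tissues after 5 MPa, 1 after 50 MPa and 0 for 50 MPa in hip caps. With all 24 libraries 4 were called between tissues after 50 MPa and 0 for 50 MPa in hip caps, Mt1 (0.86) and Mt2 (0.95) turned sign between control tissues, 7 of 10 interactions turned at 5 MPa and 5 at 50 MPa, and signs turned in hip caps after 5 MPa for Hmox1 (−0.73), Gclm (−0.13), Txnrd1 (−0.24), Srxn1 (−0.39), Sod2 (−0.52), Sod3 (−0.63), Mt1 (−0.50) and Mt2 (−0.61) and after 50 MPa for Hmox1 (−0.19), Nqo1 (−0.31), Gclm (−0.19), Txnrd1 (−0.15), Srxn1 (−0.32), Sod3 (−0.51) and Mt1 (−0.14). Counts over all genes follow in parentheses. For 5 MPa in hip caps DESeq2 called 3 of the 10 (577), the fit without batch terms 5 (2027), that with the library type term only 6 (1162) and that with the replicate block 1 (176), against 0 (4). For 50 MPa in hip caps DESeq2 called 4 (2455), TMM without mitochondrially encoded genes 1 (1094), no batch terms 5 (850), the run term only 5 (766), the replicate block 4 (1387), each tissue alone 0 (0) and libraries of 1 run alone 0 (0), against 2 (1102). For the interaction at 50 MPa DESeq2 called 3 (1349), a minimum of 10 counts per library 1 (500) and the replicate block 1 (199), against 0 (28). By DESeq2 Sod3 turned to −0.044 for 50 MPa in hip caps. The cause of these changes was not tested.

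Leaving out 1 library gave 1 to 8 calls between tissues in controls, 6 to 9 after 5 MPa and 1 to 8 after 50 MPa, 0 to 2 for 5 MPa and 0 to 4 for 50 MPa in hip caps, 0 to 0 in metatarsals and the 5 MPa interaction, and 0 to 4 in the 50 MPa interaction. Sod3 ranged from −1.0 (without control hip cap library 3; −0.92 without 50 MPa metatarsal library 4) to 1.16 for 5 MPa in hip caps and from −1.71 to 0.35 for 50 MPa. Replicate numbers did not pair the libraries: deviations of 50 same-numbered pairs correlated at −0.29 to 0.17 (median 0.02, 10 over 0.1), so the values with the replicate block stand here only, calling Gclc for 5 MPa in hip caps, Gclc, Sod2, Mt1 and Mt2 for 50 MPa and Sod2 in the interaction. Depth limits Sod3 in metatarsals most, at 3 to 109 counts a library.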

Other observations

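Over the 6 group means, with each gene centred on its own mean log2 CPM, the genes nearest to Mt1 by root mean square difference were Ndufa3, a subunit of respiratory complex I (0.191), Mt2 (0.194) and Wdr89 (0.207). Those nearest to Hmox1 were S1pr1, a sphingosine-1-phosphate receptor (0.0695), Tm9sf2 (0.0712) and Sod2 (0.0807), and those nearest to Sod2 were Asns, asparagine synthetase (0.0441), Tm9sf2 (0.0484) and Gsr, glutathione reductase (0.0493). Sod3 was nearest to Spp1, osteopontin (0.312), Cp, the copper carrier ceruloplasmin (0.315), and Chil1 (0.359). The likeness rests on 6 points that share runs and libraries, among genes with a mean of at least 10 CPM.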
